A study of Mus musculus with 4 samples.

Results

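The genes described here encode 9 surface proteins that are used to recognize lymphocytes or to tell whether they are activated: Thy1, Ly6a, Kit, Cd44, Cd69, Ptprc, Cd79b, Cd7, and Cd24a. They were taken by symbol from the 27179 genes of the deposited count table, as a list of marker genes and with no threshold on a measured value. Group 2 innate lymphoid cells (ILC2s) are tissue lymphocytes that lack rearranged antigen receptors, respond to epithelial cytokines, and release type 2 cytokines. The libraries came from ILC2s that had been sorted from the large intestine of WT C57BL/6 mice as CD45.2+ cells negative for lineage markers and positive for CD127 and KLRG1. The cells were expanded for 5 days in medium that held IL-33, IL-25, IL-7, and IL-2 at 10 ng/mL each and then received vehicle or 100 μM deoxycholic acid (DCA), a secondary bile acid made by gut bacteria. All 4 libraries thus share the cytokines, and the treatments are labelled as differing in DCA alone. DCA was present for 16 hours by the deposited design text but for 24 hours by the study's methods. There were 2 vehicle libraries and 2 DCA libraries. The C57BL/6J animals were between 6 and 8 weeks of age by one section of the study's methods, while another gives a higher upper age for mice in general. The methods name both sexes in one place and males alone for this strain in another. The labels do not say whether libraries of a treatment came from separate animals or cultures, so p-values measure only the spread between these libraries, which may be technical.

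Because ILC2s have no rearranged antigen receptor, they are usually recognized by the absence of lineage markers together with the presence of general lymphocyte proteins. CD45, the product of Ptprc, is a tyrosine phosphatase of nearly all blood-derived cells that sets the activity of Src-family kinases. Thy-1, Sca-1 (Ly6a), and CD24 (Cd24a) are small proteins held in the membrane by a glycosylphosphatidylinositol (GPI) anchor. Kit is the receptor tyrosine kinase for stem cell factor, and CD44 is the main receptor for hyaluronan. CD69 is a C-type lectin that appears soon after stimulation and holds lymphocytes in tissue by pulling the sphingosine 1-phosphate receptor S1PR1 from the surface. CD79b is a signaling chain of the B cell receptor, and CD7 is an immunoglobulin-family protein of T and NK cells.

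Library totals ran from 26564059 to 35838342 counts in 3 libraries, and DCA replicate 2 held 244165712. Values are given as CPM, the usual per-million scale of each gene's counts relative to its library's total after edgeR's TMM scaling. A count of 0 allows up to 3 counts, or 0.0125 CPM in DCA replicate 2 and between 0.0820 and 0.115 CPM in the others. Such limits and intervals cover counting error only, since the reads carry no molecular identifiers. The quasi-likelihood test of edgeR set DCA against vehicle for the 11184 genes whose mean reached 1 CPM. Of the 9 genes, 8 passed this filter, Thy1 through a single library, and Cd7 had no counts at all.

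The surface phenotype used for sorting was largely visible in the RNA. All 3 genes of positive selection were abundant. Ptprc was at 539 and 462 CPM under vehicle and at 496 and 485 CPM under DCA. Il7r, which encodes CD127, was at 373 and 350 CPM under vehicle and 582 and 461 CPM under DCA, and Klrg1 was at 688 and 678 CPM under vehicle and 463 and 356 CPM under DCA. Among 11 genes for the lineage markers excluded by the sort, Itgax and Fcer1a had no counts in any library, and only Cd3g, a CD3 chain, passed the filter, at 10.5 to 25.5 CPM. The other CD3 genes were low, Cd3d at no more than 0.710 CPM and Cd3e at no more than 1.91 CPM. All 12 ILC2 markers examined passed the filter, among them the transcription factor gene Gata3 at 599 to 839 CPM and the costimulatory receptor gene Icos at 3320 to 3582 CPM.

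**Figure D1:**
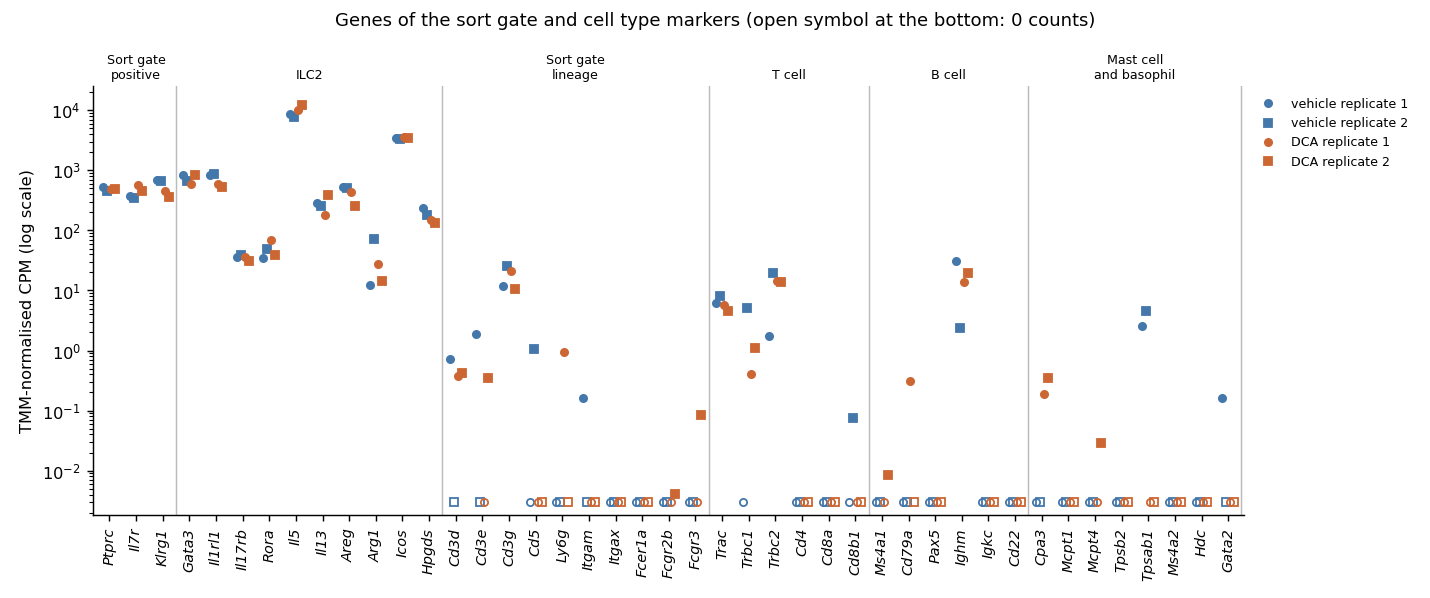
Level of genes of the sort gate and of ILC2, T cell, B cell, and mast cell markers in the 4 libraries (TMM-normalised CPM, log scale; open symbols at the bottom mark 0 counts). Genes of the positive gate and ILC2 markers lie above 10 CPM in every library, and most lineage genes lie below 2 CPM, with Cd3g at 10.5 to 25.5 CPM as an exception.

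With DCA, none of the surface genes passed the test after correction for all genes tested, and the nearest to it was Cd69, whose mean was 43.4% lower. In edgeR's quasi-likelihood test, 0 of the 8 genes tested had a Benjamini-Hochberg adjusted p under 0.05, as had 0% of all 11184 genes, and DESeq2 called 0 of these genes and 246 of 13704 over the whole table. At an unadjusted p under 0.05 there was 1 gene, Cd69, against 4.27% of all genes tested. Both DCA libraries lay below both vehicle libraries for Cd69 and Cd79b, against 14.7% of all genes tested, and above both for Ly6a, against 18.6% of all genes tested. The median log2 fold change of the 8 genes was -0.18, and that of all genes tested was 0.0080. For a single gene, an exact permutation test of 2 libraries against 2 (two-sided) cannot go below p = 0.333. In bulk RNA, a smaller share of cells with a transcript and less transcript per cell cannot be told apart.

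**Figure D2:**
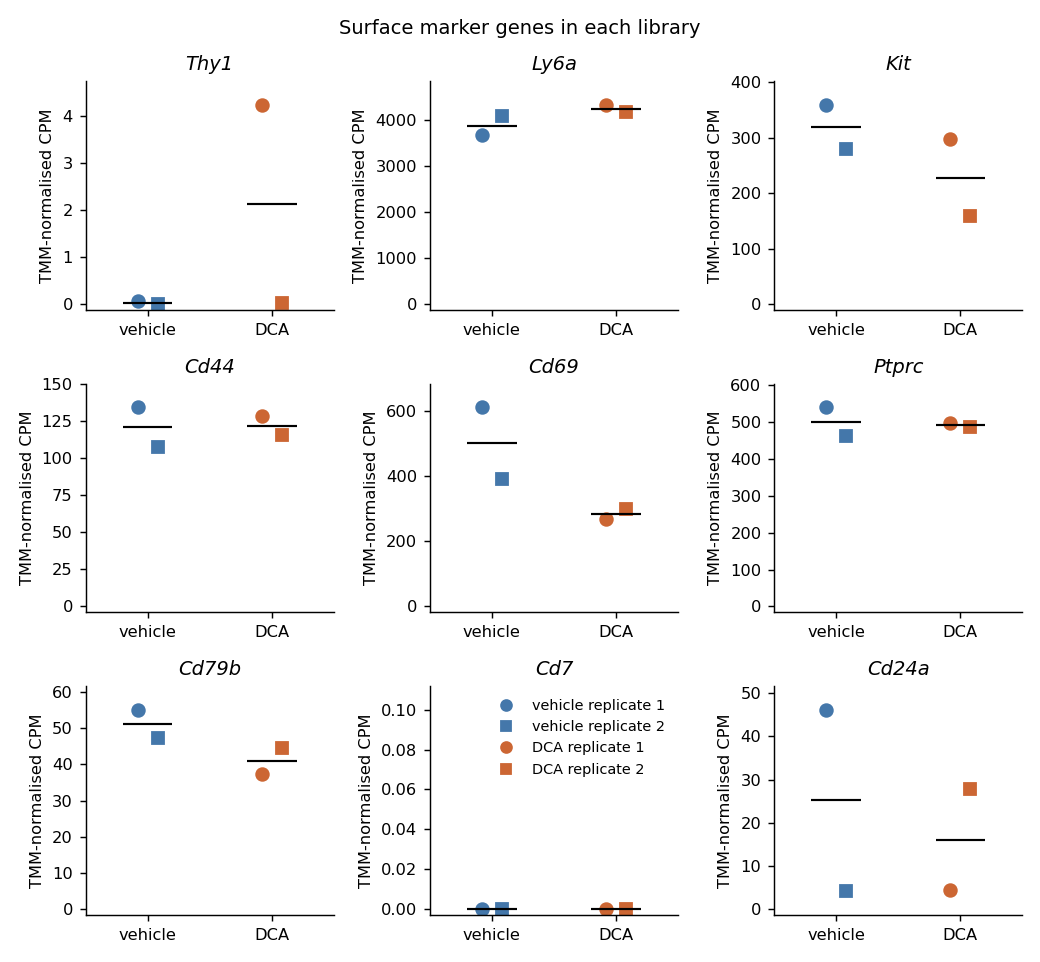
TMM-normalised CPM of the 9 surface genes in each vehicle and DCA library, on linear axes from 0, with the mean of each treatment as a horizontal line. Cd69 shows both DCA libraries (269 and 301 CPM) under both vehicle libraries (613 and 394 CPM), whereas the 2 libraries of each treatment differ several-fold for Cd24a and Thy1 is above 1 CPM in DCA replicate 1 only.

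Cd69 had the smallest p of the group. The gene (Entrez gene 12515) lies on chromosome 6 from 129267325 to 129275436 on GRCm38, minus strand. Vehicle replicates 1 and 2 had 613 and 394 CPM, and DCA replicates 1 and 2 had 269 and 301 CPM. The DCA libraries were close to each other and both below the lower vehicle library, by 23.5% for the nearer pair, while the vehicle libraries differed 1.56-fold. The means were 503 ± 155 CPM (SD, n = 2) under vehicle and 285 ± 22.8 CPM (SD, n = 2) under DCA, which is 43.4% lower. The log2 fold change by edgeR was -0.82, and the standard error of the difference on the log2(CPM + 1) scale was 0.33. By edgeR, the unadjusted p was 0.0231 and the adjusted p was 0.999. On the log2(CPM + 1) scale, limma gave a 95% interval for the difference of -1.39 to -0.18. The unadjusted p was under 0.05 in all 8 alternatives that kept the 4 libraries, from 0.00388 to 0.0235, and the adjusted p ranged from 0.138 to 1. Of other cell types, the sum of 7 macrophage and monocyte markers was also lower under DCA through a single gene, Cd68. The sum was 24.7 and 23.97 CPM under vehicle and 7.30 and 10.2 CPM under DCA, while Csf1r, Cd14, and C1qa had no counts. The part of such cells in the values of Cd69 was not tested. The size of the difference rested in part on vehicle replicate 1, since the log2 fold change was -0.49 without that library and -1.10 when vehicle replicate 2 was left out.

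The genes that act with CD69 were low and uneven. S1pr1, which encodes the receptor that CD69 removes from the surface, was at 0.137 and 12.0 CPM under vehicle and at 0 and 12.3 CPM under DCA. Its libraries differed far more within a treatment than between treatments, and its log2 fold change was 0.018 (unadjusted p = 0.995, edgeR's quasi-likelihood test). Klf2, the transcription factor gene known to drive S1pr1, was at 0 counts under vehicle and reached 10 and 89 counts under DCA, too few to enter the test.

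Cd79b, on chromosome 11 from 106311341 to 106314762 (minus strand, Entrez gene 15985), was present in every library. It was at 55.1 and 47.2 CPM under vehicle and at 37.4 and 44.5 CPM under DCA. Both DCA libraries were lower, but the nearer pair, vehicle replicate 2 and DCA replicate 2, were only 5.82% apart. The means of 51.2 ± 5.58 CPM (SD, n = 2) and 40.9 ± 4.99 CPM (SD, n = 2) gave a log2 fold change of -0.32 (edgeR, unadjusted p = 0.376). On the log2(CPM + 1) scale, the standard error of the difference was 0.16. The 95% limma interval of the difference was -1.12 to 0.49.

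Of 7 B cell markers, 5 had at most 3 counts in any library, while some partners of the B cell receptor were detected. Cd79a, whose product pairs with CD79b in the B cell receptor, had 0, 0, 10, and 0 counts in vehicle replicates 1 and 2 and DCA replicates 1 and 2. Pax5, Cd22, and Igkc, further B cell markers, had no counts in any library, and Ms4a1 had at most 2. Ighm, the immunoglobulin heavy chain gene, was the one B cell marker of 7 that passed the filter, at 31.4 and 2.40 CPM under vehicle and 13.7 and 19.5 CPM under DCA. The 7 B cell markers summed to 31.4, 2.41, 13.98, and 19.5 CPM over the same libraries, while Cd79b stayed between 37.4 and 55.1 CPM. Blnk, the adaptor downstream of CD79b, had no counts. Syk, the kinase that binds phosphorylated CD79b, was at 22.1 and 3.09 CPM under vehicle and 0 and 2.76 CPM under DCA (edgeR, unadjusted p = 0.191). The kinase gene Lyn was at 68.3 and 26.2 CPM under vehicle and 46.0 and 34.7 CPM under DCA. Another kinase gene, Btk, was at 0 CPM under vehicle and 8.29 and 1.16 CPM under DCA.

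Kit (chromosome 5, 75574916 to 75656722, plus strand, Entrez gene 16590) was clearly expressed and varied between libraries. It was at 359 and 279 CPM under vehicle and at 297 and 158 CPM under DCA. DCA replicate 1 lay between the vehicle libraries and DCA replicate 2 below them, so the treatments overlapped. The means were 319 ± 56.6 CPM (SD, n = 2) and 228 ± 98.0 CPM (SD, n = 2), a log2 fold change of -0.49 (edgeR, unadjusted p = 0.205). On the log2(CPM + 1) scale, the standard error of the difference was 0.49. The lower mean rested on DCA replicate 2, because the log2 fold change was -0.10 without that library and -1.01 without DCA replicate 1. With the replicate number as a block, the unadjusted p was 0.0421 and the adjusted p was 1. The 95% limma interval was -1.28 to 0.20.

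Kit is also a defining receptor of mast cells, and the markers of that lineage were low. Of 9 mast cell and basophil markers, 5 had no counts in any library, including Fcer1a and Ms4a2, which encode chains of the IgE receptor, and the histamine-forming enzyme gene Hdc. The 9 markers together came to 2.68 and 4.58 CPM under vehicle and 0.186 and 0.378 CPM under DCA, against 158 to 359 CPM of Kit. The vehicle sum was nearly all Tpsab1, a tryptase gene, with 92 and 120 counts under vehicle and none under DCA (unadjusted p = 0.0138, adjusted p = 0.999, edgeR's quasi-likelihood test). Tpsab1 passed the filter only through the vehicle libraries, so its p is no support for a difference. The part of such cells in the values of Kit was not tested. Kitl, the gene for stem cell factor, was detected in the same cultures, at 23.8 and 0.534 CPM under vehicle and 10.9 and 14.03 CPM under DCA, and vehicle replicate 2 was far below the other libraries. The adaptors of Kit signaling showed no called change, with log2 fold changes of -0.39 for Gab2 and -0.12 for Grb2 and unadjusted p of 0.388 and 0.720 (edgeR).

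Ptprc and Cd44 were the most even of the larger receptors. Ptprc (chromosome 1, 138062861 to 138175708, minus strand, Entrez gene 19264) had means of 501 ± 54.3 CPM (SD, n = 2) under vehicle and 491 ± 8.33 CPM (SD, n = 2) under DCA. Both DCA libraries fell inside the range of the vehicle libraries. The log2 fold change was -0.029 (edgeR, unadjusted p = 0.892). On the log2(CPM + 1) scale, the standard error of the difference was 0.11 and the 95% limma interval was -0.52 to 0.47. The counts are per gene, so the isoforms of CD45 that carry or lack the B220 segment could not be separated. Ptprcap, which encodes a protein bound to CD45, was likewise level, at 338 and 354 CPM under vehicle and 373 and 306 CPM under DCA. The Src-family kinase genes that CD45 acts on had log2 fold changes of -0.10 for Fyn, -0.23 for Lyn, and -1.78 for Lck, each with an unadjusted p of 0.507 or more, and Lck, at 8.53 and 0 CPM under vehicle and 1.52 and 0.976 CPM under DCA, was low and patchy.

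Cd44 (chromosome 2, 102811141 to 102901665, minus strand, Entrez gene 12505) was at 134 and 108 CPM under vehicle and at 129 and 116 CPM under DCA. The DCA values again fell between the vehicle values. The means were 121 ± 18.9 CPM (SD, n = 2) and 122 ± 9.07 CPM (SD, n = 2), with a log2 fold change of 0.013 by edgeR (unadjusted p = 0.960). Its sign changed with the scaling, so no direction is given, and the 95% limma interval of the difference was -0.59 to 0.63. Genes of the ezrin, moesin, and radixin proteins, which tie CD44 to actin, were lower on average without a called change. Ezr was at 452 and 138 CPM under vehicle and 268 and 198 CPM under DCA, Msn had a log2 fold change of -0.26, and Rdx one of -0.13 (unadjusted p of 0.541, 0.380, and 0.590, edgeR).

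Ly6a, the gene for Sca-1, was the most abundant surface gene of the 9 and among the most abundant of all. It lies on chromosome 15 from 74994877 to 74998031 (minus strand, Entrez gene 110454). Its share of all counts was 0.374% to 0.435%, and it ranked between 13 and 16 among all genes by raw count. The values were 3660 and 4074 CPM under vehicle and 4320 and 4156 CPM under DCA. Both DCA libraries were higher, by 2.01% for the nearer pair. The means of 3867 ± 293 CPM (SD, n = 2) and 4238 ± 116 CPM (SD, n = 2) gave a log2 fold change of 0.13 (edgeR, unadjusted p = 0.472). Left-out libraries moved this fold change between 0.030 and 0.21. On the log2(CPM + 1) scale, the standard error of the difference was 0.082 and the 95% limma interval was -0.40 to 0.66.

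The neighbours of Ly6a in the Ly6 family ranged from abundant Ly6e to several barely detected genes. Of 10 family genes, Ly6a included, 4 passed the filter, with 3 higher and 1 lower under DCA, against 50.7% higher of all genes tested. At an unadjusted p under 0.05 by edgeR there were 0, against 4.27% of all genes tested. Ly6e was at 2410 and 2749 CPM under vehicle and 2761 and 2694 CPM under DCA, a log2 fold change of 0.081 by edgeR (unadjusted p = 0.670). Ly6c2 had 7 and 75 counts under vehicle and 0 and 19 under DCA. Ly6c1 was at 11.9 and 0.0382 CPM under vehicle and at 0.0309 and 3.65 CPM under DCA, and its log2 fold change was -1.69 (edgeR, unadjusted p = 0.537). Genes of this family are similar in sequence and the handling of reads that match several of them is not stated, so the counts of the low members are uncertain.

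Thy1, the gene of the surface marker Thy-1, was nearly absent from all libraries but DCA replicate 1. It lies on chromosome 9 from 44043384 to 44048579 (plus strand, Entrez gene 21838). There were 2 and 0 counts in vehicle replicates 1 and 2, 137 counts in DCA replicate 1, and 6 counts in the far deeper DCA replicate 2. These correspond to 0.0546, 0, 4.24, and 0.0249 CPM. Only DCA replicate 1 was above 1 CPM, while the 6 counts of DCA replicate 2 (95% exact Poisson interval 0.00915 to 0.0543 CPM) were above its limit of 0.0125 CPM at a far lower level. Against the counts of both vehicle libraries together, DCA replicate 1 was higher by a ratio of 133 (95% exact binomial interval 36.1 to 1110) and DCA replicate 2 had a ratio of 0.783 (0.140 to 7.93). These intervals compare libraries and cover counting error only. The fitted log2 fold change of 6.13 (unadjusted p = 0.129, adjusted p = 0.999, edgeR) rested on DCA replicate 1, through which the gene passed the filter, and on the log2(CPM + 1) scale the limma interval was -1.28 to 3.63. The same library also held Il17a (48 counts) and Ly6g (31 counts), which had none in the other libraries, and 93 counts of the mucin gene Muc2, which had 0, 20, and 0 in vehicle replicates 1 and 2 and DCA replicate 2. The 9 T cell markers summed to 22.4 and 58.3 CPM under vehicle and 42.4 and 31.0 CPM under DCA. Cd4 and Cd8a were at 0 in all 4 libraries. Counts of T cell receptor genes do not mark T cells here, because ILCs can hold germline transcripts of them. The part of other cells in the Thy1 counts was not tested.

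Cd7 (chromosome 11, 121036747 to 121039418, minus strand, Entrez gene 12516) had 0 counts in all 4 libraries. The limits that a count of 0 allows were 0.0820 and 0.115 CPM under vehicle and 0.0928 and 0.0125 CPM under DCA. No change under DCA could be measured. The genes of its ligands were low, Sectm1a with 4 counts in DCA replicate 1 alone. Sectm1b had 12 and 0 counts under vehicle and 0 and 58 counts under DCA. Its 0.328 CPM in vehicle replicate 1 and 0.241 CPM in DCA replicate 2 were above the limits of those libraries.

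Cd24a (chromosome 10, 43578284 to 43584265, plus strand, Entrez gene 12484) had the largest spread within treatments of the 9 genes on the log2(CPM + 1) scale. Vehicle replicates 1 and 2 had 1689 and 111 counts, and DCA replicates 1 and 2 had 140 and 6671 counts. In CPM these were 46.2 and 4.24 under vehicle and 4.33 and 27.7 under DCA. One library of each treatment was high and the other low, 10.9-fold apart under vehicle and 6.40-fold apart under DCA, and the 2 low libraries were nearly equal. The means of 25.2 ± 29.6 CPM (SD, n = 2) and 16.0 ± 16.5 CPM (SD, n = 2) overlapped widely. The log2 fold change was -0.65 (edgeR, unadjusted p = 0.615). Leaving out vehicle replicate 1 gave 1.9, and leaving out DCA replicate 2 gave -2.54. On the log2(CPM + 1) scale, the standard error of the difference was 2.00. Among the 6331 genes whose mean reached 20 CPM, 99.7% had a smaller spread within treatments than Cd24a.

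CD24 is found on B cells, granulocytes, and epithelium as well as on some innate lymphocytes. The 6 epithelial markers summed to 8.20 and 14.3 CPM under vehicle and 10.6 and 8.98 CPM under DCA. Of these, Epcam was at 7.62 and 6.95 CPM under vehicle and 3.99 and 7.85 CPM under DCA, and Krt18 was at 0.219 and 6.41 CPM under vehicle and 3.25 and 1.09 CPM under DCA. Epcam was thus highest in the libraries with high Cd24a, by a small margin under vehicle, and Krt18 was lowest in them. The B cell sum, set by Ighm, was highest in vehicle replicate 1 and next in DCA replicate 2, the same 2 libraries in which Cd24a was high. It was also 13.98 CPM in DCA replicate 1, where Cd24a was low. With 4 libraries, a shared order is too little to link genes. Siglecg, the gene of a lectin that binds CD24, had no counts. The part of other cells in this pattern was not tested.

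**Figure D3:**
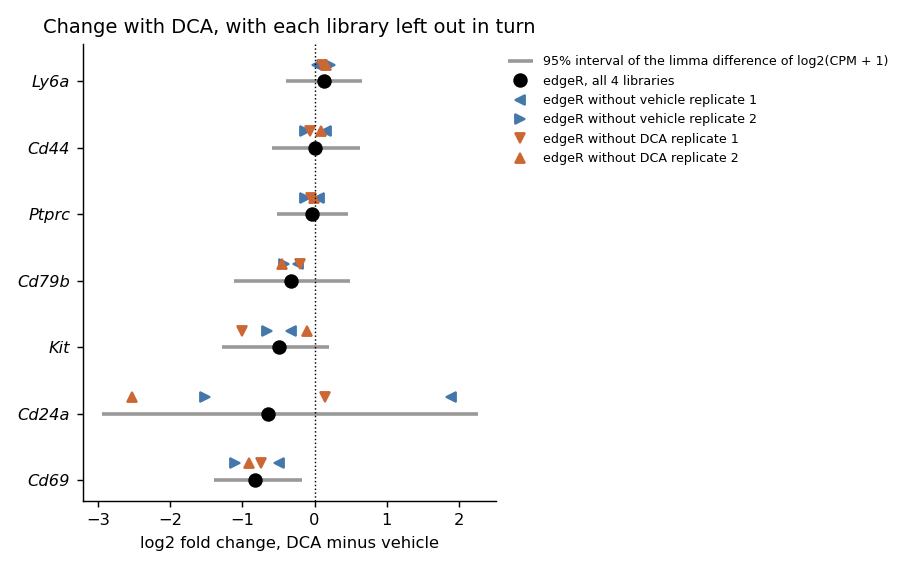
Log2 fold change of 7 surface genes under DCA (black, edgeR with all libraries; coloured triangles, edgeR with 1 library left out; grey bars, 95% interval of the limma difference on the log2(CPM + 1) scale). Thy1 and Cd7 are left out for want of counts. Cd69 stays below 0 in all 4 left-out fits, from -1.10 to -0.49, and Cd24a runs from -2.54 to 1.9.

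Levels were compared between genes as CPM per kb of exon. Ly6a was first, at 3851 ± 292 CPM per kb (SD, n = 2) under vehicle and 4221 ± 116 under DCA (SD, n = 2). Cd69 followed at 298 ± 91.8 and 169 ± 13.5, and then Ptprc at 97.8 ± 10.6 and 95.8 ± 1.63 CPM per kb. In all 4 libraries these genes kept their order, with no overlap between neighbours. Kit, at 30.2 to 68.3 CPM per kb, overlapped with Cd79b, at 26.2 to 38.5. Cd44, at 19.0 to 23.8 CPM per kb, lay below Cd79b in each library and overlapped with Cd24a, at 2.08 to 22.7. Thy1 had the lowest mean of the genes with counts, but its highest library, DCA replicate 1 at 2.26 CPM per kb, was above Cd24a in that library at 2.13, so their ranges overlapped. The order of the means was the same with the length of the longest annotated transcript in place of the union of exons.

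**Figure D4:**
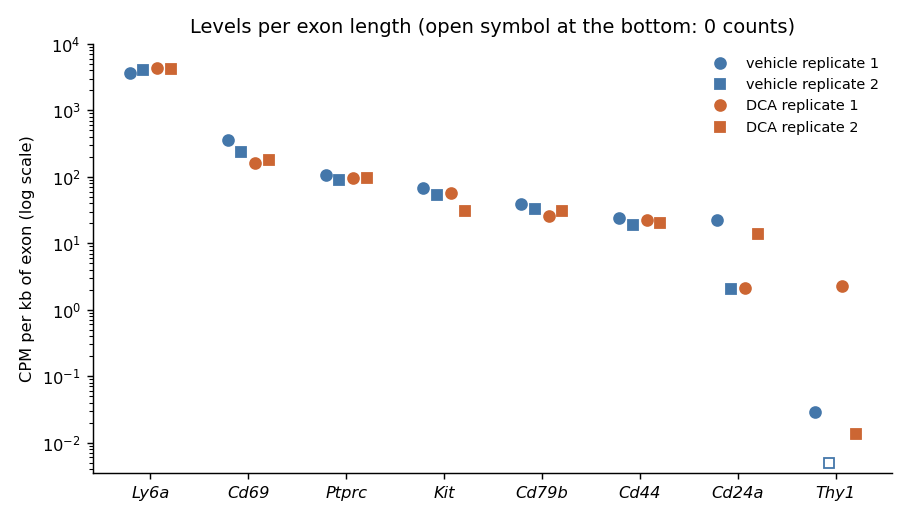
CPM per kb of exon for the 8 surface genes with counts, in order of their mean (log scale; an open symbol at the bottom marks 0 counts). Ly6a lies between 3645 and 4303 CPM per kb, Cd69 and Ptprc lie between 90.3 and 363, and Thy1 spans from 0 to 2.26.

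The surface genes differed widely in how well the libraries of a treatment matched. Among genes whose mean reached 20 CPM, the median within-treatment SD of log2(CPM + 1) was 0.32. That SD was 0.082 for Ly6a, 0.11 for Ptprc, 0.16 for Cd79b, and 0.18 for Cd44, all below the median. Cd69, at 0.33, was near it, and Kit, at 0.49, and Cd24a, at 2.00, were above it. The median absolute log2 fold change of the same genes was 0.26, which Cd69, Kit, Cd79b, and Cd24a exceeded and Ly6a, Ptprc, and Cd44 did not.

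The wider set of lymphocyte surface genes had differences in both directions. Of 28 further identity and activation genes, 17 were tested, with 10 higher and 7 lower under DCA and a median log2 fold change of 0.057. At an unadjusted p under 0.05 there were 3 of the 17, against 4.27% of all genes tested, with 2 higher and 1 lower, and 0 passed adjustment over all genes in edgeR's quasi-likelihood test. Cd81, a tetraspanin gene, was at 43.0 and 45.5 CPM under vehicle and at 109 and 81.4 CPM under DCA, a log2 fold change of 1.10 by edgeR (unadjusted p = 0.0103). Il2ra, which encodes CD25, had a log2 fold change of 0.47 by edgeR (unadjusted p = 0.0459). Klrg1, one of the sorting markers, had a log2 fold change of -0.74 by edgeR (unadjusted p = 0.0154), and Il7r, the other receptor of the positive gate, one of 0.53 (unadjusted p = 0.0531). Of the 17 tested genes, 6 had both DCA libraries above both vehicle libraries, against 18.6% of all genes tested. Another 2 had both below, against 14.7%. The 4 genes just given were among these, but genes named for a small p tend not to overlap, so that adds nothing to their p. Among the 12 ILC2 markers, which include Klrg1, Il7r, and Icos of the set above, 5 were higher and 7 lower, against 50.7% higher of all genes tested. The 2 with an unadjusted p under 0.05 by edgeR were both lower, Klrg1 and Il1rl1. Of all genes tested, 1.73% were lower at that p. Il1rl1, the IL-33 receptor gene, was named after its values were seen and had a log2 fold change of -0.60 by edgeR (unadjusted p = 0.0229).

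Surface genes of this set with no counts were Cd2, Cd9, Cd27, and Klrb1c. By contrast the tetraspanin gene Cd53 was at 1257 to 1310 CPM and differed little between any libraries, with a log2 fold change of -0.014 by edgeR (unadjusted p = 0.941).

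Partners and ligands of the 9 proteins gave 16 tested genes of 22, of which 5 were higher and 11 lower, with a median log2 fold change of -0.13. Of all genes tested, 50.7% were higher. The single one at an unadjusted p under 0.05, against 4.27% of all genes tested, was Btk, a kinase gene of the B cell receptor pathway, with 0 counts in both vehicle libraries and 268 and 278 counts in the DCA libraries (unadjusted p = 0.0170, adjusted p = 0.999, edgeR). That is 8.29 CPM in DCA replicate 1 and 1.16 CPM in DCA replicate 2, and the gene passed the filter only through the DCA libraries, so its p is no support for a difference. The lower gene with the smallest p was Pag1, whose product recruits the kinase Csk to the membrane, with a log2 fold change of -1.04 by edgeR (unadjusted p = 0.170).

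Thy-1, Sca-1, and CD24 need a GPI anchor, which is built and attached in the endoplasmic reticulum. Of 27 genes for this process, 26 were analysed and all passed the filter. With DCA, 16 were higher and 10 lower, against 50.7% higher of all genes tested, with a median log2 fold change of 0.081. At an unadjusted p under 0.05 by edgeR there were 0, against 4.27% of all genes tested. Gpaa1, a subunit of the enzyme that attaches the anchor, was at 72.7 and 80.6 CPM under vehicle and 127 and 98.0 CPM under DCA, a log2 fold change of 0.55 by edgeR (unadjusted p = 0.0901). Pigm, a mannosyltransferase of anchor synthesis, had a log2 fold change of -0.64 by edgeR (unadjusted p = 0.270).

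**Figure D5:**
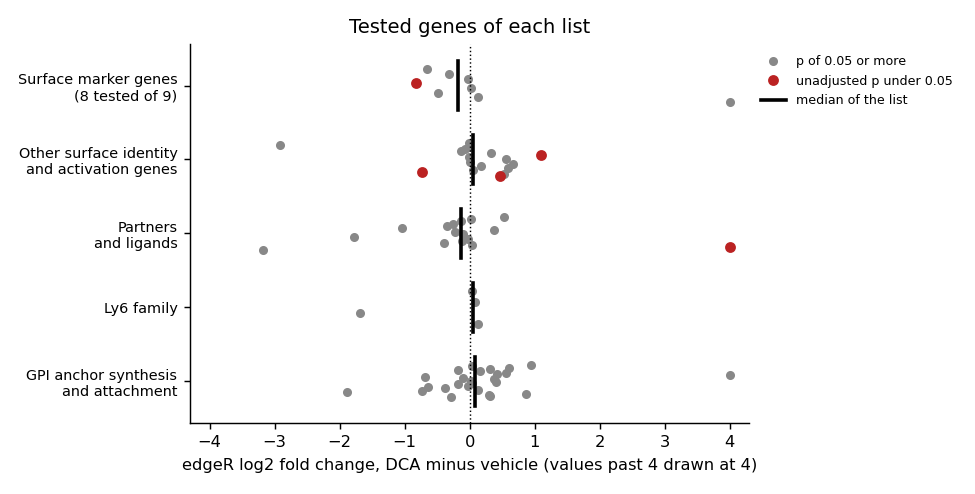
edgeR log2 fold change under DCA of each tested gene in 5 lists (points past 4 are drawn at 4; red, unadjusted p under 0.05; black bar, median of the list). The medians lie between -0.18 and 0.081, and Cd69, Cd81, Il2ra, Klrg1, and Btk are the red points.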

How the data were processed

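RNA-Seq of cultured ILC2s was analysed as 2 vehicle and 2 DCA libraries, assigned by their titles, in which the vehicle libraries are named Ctrl. The study's RNA-Seq methods describe treatment with or without DCA and name no vehicle there. The deposited values are raw read counts, in whole numbers for each gene, under a file title that mentions FPKM. By the submitters' processing notes and the study's methods, Cutadapt 1.9, HISAT2 2.2.1, and mm10 were used, with a library kit that does not mark strand. The counting tool, its annotation, and its strand setting are not given in the sources used here, so overlapping and near-identical genes are uncertain. Cd7 shares 12.4% of its exon bases with an antisense gene.

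Counts were fitted with edgeR 4.0.16 in R 4.3.3 (TMM scaling and a two-sided quasi-likelihood test, adjusted by Benjamini-Hochberg over every gene tested) where the mean reached 1 CPM. Standard errors come from log2(CPM + 1) values, and intervals from limma 3.58.1 on that scale. Positions and exon lengths are from GENCODE M21 (GRCm38). Alternatives were DESeq2 1.42.0, limma, 2 scalings, 2 filters, the replicate block, DCA replicate 2 thinned to 32102232 counts, and each library left out. The test was checked on simulated counts. The replicate numbers do not pair libraries by label. The 9 genes and all lists were chosen with earlier results of these data known. Named are the 9, all genes of the positive gate, their direct partners, and the gene with the smallest p per direction in each list. Others were named after their values were seen. A few list genes are not reported here by name.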

Additional observations from a re-analysis of the deposited data

How the results depend on the processing

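No surface gene passed an adjusted p of 0.05 in any alternative that kept all libraries. Over the whole table, the genes that did numbered 0 by edgeR with its 1 CPM filter, 36 without a filter (847 at an unadjusted p under 0.05), and 246 with DESeq2 (1242 unadjusted), against 478 unadjusted at first. Surface genes at an unadjusted p under 0.05, 1 at first (Cd69), numbered 2 with DESeq2, where Thy1 was the other, and 2 with the replicate block, where Kit was the other. Replicate numbers share only a label (correlation of deviations across genes 0.0197). The log2 fold change of Cd44, 0.013, reversed to -0.013 with median-of-ratios scaling, -0.014 with DESeq2, and -0.0011 with DCA replicate 2 thinned, all within its spread. With each library left out it ranged from -0.14 to 0.16, that of Ptprc from -0.13 to 0.059, and that of Cd24a from -2.54 to 1.9. The surface genes whose treatments did not overlap ranged from 2 to 6 for lower and from 1 to 5 for higher (6 without vehicle replicate 2, 5 without vehicle replicate 1), counts that were added after the data were seen. Separation is easier to reach with a library left out. The share over all genes was computed with all 4 libraries only, so these counts are not read as a result. The fits without DCA replicate 1 and with a mean of at least 5 CPM drop Thy1. The cause of these changes was not tested. What can be said of Thy1 is limited by its DCA libraries, with 137 counts in replicate 1 and 6 in the far deeper replicate 2. Cd7 had no counts even in that library, and depth sets only the limit that a count of 0 allows.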
